A study of Caenorhabditis elegans with 68 samples.

Results

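The comparison described here set newly hatched (L1) Caenorhabditis elegans larvae, nematodes whose hrg-1 gene carries a mutated target site of the microRNA mir-85 against wild type larvae, both born to mothers kept at 300 mM NaCl. It holds 10 of the 68 samples of the series, chosen by their labels: 5 RNA sequencing libraries of hrg-1(gcp100[mir-85 seed mutated]) X, strain MHE310, called gcp100 here, and 5 of the wild type strain N2, which has the intact site. A further 5 libraries of each genotype from mothers at 50 mM NaCl belong to the same experiment and served to show which differences were already there without the high salt. The series asks how salt met by the mother, and microRNAs she may pass on, alter the transcripts of her progeny. Whole hatched larvae were used, so a level averages over all tissues, and the mutant is represented by 1 allele in 1 strain. Separate cultures are not named for the biological replicates, and a p-value here covers no more than the spread among the libraries, which may be technical.

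Caenorhabditis elegans cannot make heme and takes it up with its food. HRG-1 is a heme transporter of vesicles in the intestine, HRG-4 imports heme from the gut lumen, MRP-5 exports it to other tissues, and HRG-3 is a secreted chaperone that carries maternal heme to embryos. MicroRNAs lower the level or the translation of transcripts whose 3′ untranslated region pairs with the seed, the bases near the 5′ end of the microRNA. A mutation of the seed match in hrg-1 removes 1 such contact and leaves mir-85 itself in place.

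Values are TPM, each gene's length-normalised share of the transcripts in a library on a scale common to all libraries. Differences are gcp100 minus N2 on the scale log2(TPM + 1), with the standard error (SE) of a limma fit over all 20 libraries of the experiment. This scale understates differences of genes with low TPM. The pairs of libraries at 300 mM were less alike than those at 50 mM, with a lowest correlation across genes of 0.781 within gcp100 and 0.668 within N2, against at least 0.941 within each genotype at 50 mM. Of the 300 mM libraries 5 are called in doubt here, by limits set with the data in view: summed TPM of the sperm genes named msp was 1502 in gcp100 replicate 1 and 4740 in N2 replicate 3, and 64.5%, 59.9% and 58.9% of all lines were listed at 0 in gcp100 replicates 3 and 5 and in N2 replicate 5. The other libraries at 300 mM held 5.03 to 234 TPM of msp genes and 36.9% to 44.8% of lines at 0. Leaving out these 5 leaves 2 libraries of gcp100 and 3 of N2; the value without them is given for hrg-1, for the lists (all of them in the plot of list medians) and for named genes where it differs by more than 1.5 times. The sequencing depth is unknown, because TPM keep none.

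The targeted gene is hrg-1 (WBGene00019830; X, 4008057 to 4016221, minus strand, WBcel235), and its annotated 3′ untranslated region spans 4008057 to 4008234. At 300 mM its level was 54.3, 30.1, 28.9, 28.0 and 27.8 TPM in gcp100 replicates 1 to 5, and 13.1, 27.1, 11.8, 23.7 and 14.2 TPM in N2 replicates 1 to 5. Every gcp100 library stood above every N2 library, but the lowest gcp100 value and the highest N2 value lay within 1 TPM of each other, and 4 of the gcp100 libraries were nearly equal. The means were 33.8 ± 11.5 TPM in gcp100 and 17.97 ± 6.91 TPM in N2 (SD, n = 5 each), a log2 difference of 0.90 (SE 0.338). Tested on its own, with the libraries taken as unpaired, hrg-1 had p = 0.00794 (exact permutation test, two-sided). This is the smallest p that the 252 ways of dealing 10 libraries into 5 and 5 allow. In the limma fit over 15275 genes hrg-1 had an adjusted p of 0.777 and did not pass the threshold of 0.05.

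At 50 mM the order of the means was the other way, with 15.3 ± 5.37 TPM in gcp100 and 20.2 ± 9.39 TPM in N2 (log2 difference -0.32, exact permutation p = 0.421, n = 5 each). The genotype difference at 300 mM exceeded that at 50 mM by 1.21 (SE 0.478), with an unadjusted limma p of 0.0195 that did not pass after adjustment (0.9999). Without the 5 libraries in doubt the difference of hrg-1 at 300 mM was 0.49 (exact permutation p = 0.300; with 2 against 3 libraries no p under 0.1 can be reached). Leaving out gcp100 replicate 1 alone, the highest library, gave 0.72 (exact permutation p = 0.0476). Markers of the intestine, the tissue in which hrg-1 is best known, had a median difference of 0.20 with all libraries and -0.08 without those in doubt, and their part in the hrg-1 difference was not tested.

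The gene mop-25.1, on the plus strand of X at 4012219 to 4022209, overlaps hrg-1 from the opposite side. Whether the authors counted reads by strand is not given in the sources used here, so the 2 genes may share reads. Its level was 100.2, 104.9, 76.4, 90.6 and 79.2 TPM in gcp100 replicates 1 to 5, and 90.2, 94.4, 73.4, 87.2 and 50.5 TPM in N2. The groups overlapped, with a log2 difference of 0.21 (exact permutation p = 0.310, n = 5 each), and of 0.11 without the libraries in doubt. The difference of hrg-1 taken relative to mop-25.1 in each library was 0.69 (exact permutation p = 0.0238, n = 5 each). None of the genes within 10 kb of hrg-1, other than hrg-1 itself, had an unadjusted limma p under 0.05, and the noncoding gene R02E12.9 inside hrg-1 was listed at 0 in all 10 libraries.

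**Figure D1:**
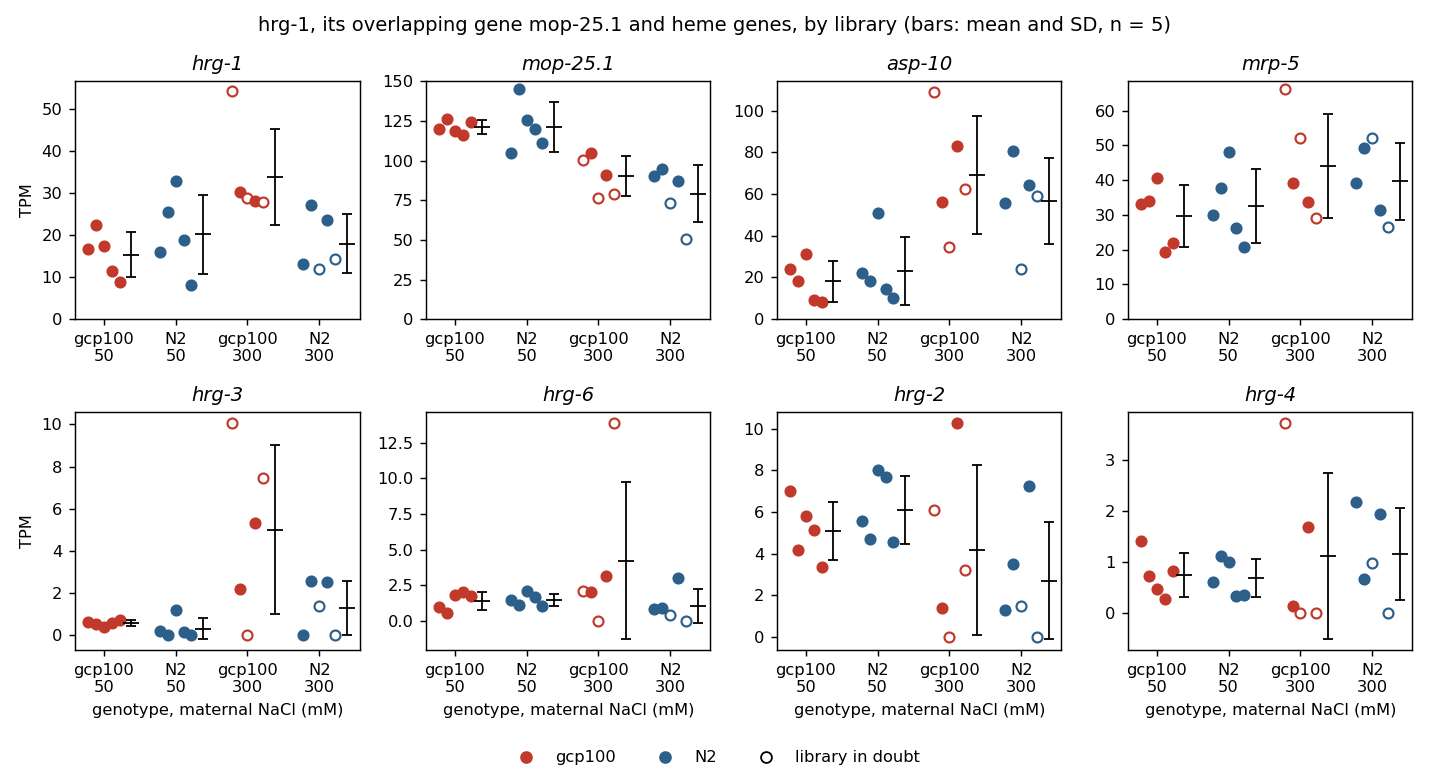
Level in TPM (vertical axes, linear) of hrg-1, of the overlapping gene mop-25.1 and of 6 heme genes in each library, by genotype and maternal NaCl in mM, with mean and SD of 5 libraries beside the points and open circles for libraries in doubt. For hrg-1 at 300 mM all 5 gcp100 libraries lie at 27.8 TPM or above and all 5 N2 libraries at 27.1 TPM or below. For every other gene shown the groups overlap.

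Of 13 names on the list of heme transporters and chaperones, 8 are in the table and 7 were tested. Of these 7, 6 had a positive difference, with a median of 0.39 against -0.07 over all genes tested, and without the libraries in doubt 5 were positive with a median of 0.24. At 50 mM the median was -0.12. No member passed the adjusted test. With an unadjusted p under 0.05, hrg-1 and hrg-3 were 2 of 7, where the share over all genes was 1.73% in this direction; without the libraries in doubt 0 of 7 had one, where the share was 2.03%.

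The gene of the heme chaperone, hrg-3, was at 10.1, 2.21, 0, 5.35 and 7.44 TPM in gcp100 replicates 1 to 5, and at 0, 2.60, 1.41, 2.53 and 0 TPM in N2. The groups overlapped, since gcp100 replicate 3 was listed at 0 and gcp100 replicate 2 lay below N2 replicates 2 and 4. The 3 highest values were gcp100 replicates 1, 5 and 4, of which replicates 1 and 5 are in doubt (log2 difference 1.19, SE 0.53, limma adjusted p = 0.777). F58E6.11 overlaps the end of hrg-3 on the opposite strand.

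The hrg-1 relative hrg-6 ranged from 0 to 13.9 TPM in gcp100 and from 0 to 3.02 TPM in N2 (log2 difference 0.95, SE 0.508, limma adjusted p = 0.777; 0.54 without the libraries in doubt). The intestinal exporter gene mrp-5 averaged 44.1 ± 15.1 TPM in gcp100 and 39.7 ± 11.1 TPM in N2 (SD, n = 5 each), and the aspartyl protease gene asp-10 averaged 69.2 ± 28.2 TPM in gcp100 and 56.9 ± 20.7 TPM in N2. Differences of mrp-5 (0.13) and asp-10 (0.28) were smaller than their standard errors (0.276 and 0.427), and without the libraries in doubt mrp-5 was at -0.11 and asp-10 at 0.05. The hypodermal gene hrg-2 had a mean of 4.18 TPM in gcp100 and 2.70 TPM in N2, and the importer gene hrg-4 was the member with a negative difference (-0.22), at 1.11 TPM in gcp100 and 1.16 TPM in N2. The difference of hrg-2 was 0.24 without the libraries in doubt and 0.39 with all, and that of hrg-4 was -0.51 without them. Levels of hrg-5 were at most 0.20 TPM in gcp100 and 0.46 TPM in N2, under the filter of 1 TPM in at least 5 libraries.

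Among genes of proteins that bind heme (catalases, cytochromes, peroxidases and globins), 0 of 16 passed the adjusted test, 9 differences were positive and the median was 0.07 (-0.02 without the libraries in doubt). Of 12 tested genes of iron and other metals, such as ferritins and metal transporters, 0 passed, 8 were positive, and the median was 0.08. The microRNA pathway genes, among them those for Drosha, Dicer and Argonaute proteins, gave 0 of 12 past the test, 3 positive differences and a median of -0.20.

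Across all genes, 0 of 15275 passed the limma test at 300 mM in either direction (0% called). The smallest adjusted p was 0.115. An unadjusted p under 0.05 was reached by 880 genes (5.76%), 265 of them with higher (1.73%) and 615 with lower means in gcp100 (4.03%). At 50 mM 0 genes passed and 51 had an unadjusted p under 0.05 (0.334%). Of these, 18 had higher (0.118%) and 33 lower means in gcp100 (0.216%). For the difference between the 2 genotype effects the counts were 0 and 187 (1.22%). This fit shares 1 spread between the exposures, although the 300 mM libraries varied more, so 880 and 51 cannot be compared as sizes of effect. With each exposure fitted alone, 173 of 13684 genes at 300 mM (1.26%) and 193 of 13862 at 50 mM had an unadjusted p under 0.05. Without the libraries in doubt 0 of 14664 genes passed at 300 mM, and 572 had an unadjusted p under 0.05, 297 higher (2.03%) and 275 lower (1.88%).

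The groups did not overlap for 23 genes (0.151%), 12 of them higher in every gcp100 library (0.0786%) and 11 lower (0.072%). This share lies below the probability of 0.00794 that exchangeable libraries, 5 against 5, separate in either direction. Of the 23, 22 had an unadjusted p under 0.05, which follows largely from picking them by their separation. The sign was the same at 50 mM for 14, a count for which the share over all genes is not given here. H34I24.2 was the 1 gene whose groups did not overlap at 50 mM either. At 50 mM the groups did not overlap for 7 genes higher (0.0458%) and 31 lower in gcp100 (0.203%). In the annotation 13 of the 23 overlap another gene and may share reads with that neighbour, and here too the share over all genes is not given. With only 2 against 3 libraries left, 945 genes did not overlap with higher (6.44%) and 873 with lower values (5.95%). Exchangeable libraries in these numbers separate with a probability of 0.1 in each direction.

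**Figure D2:**
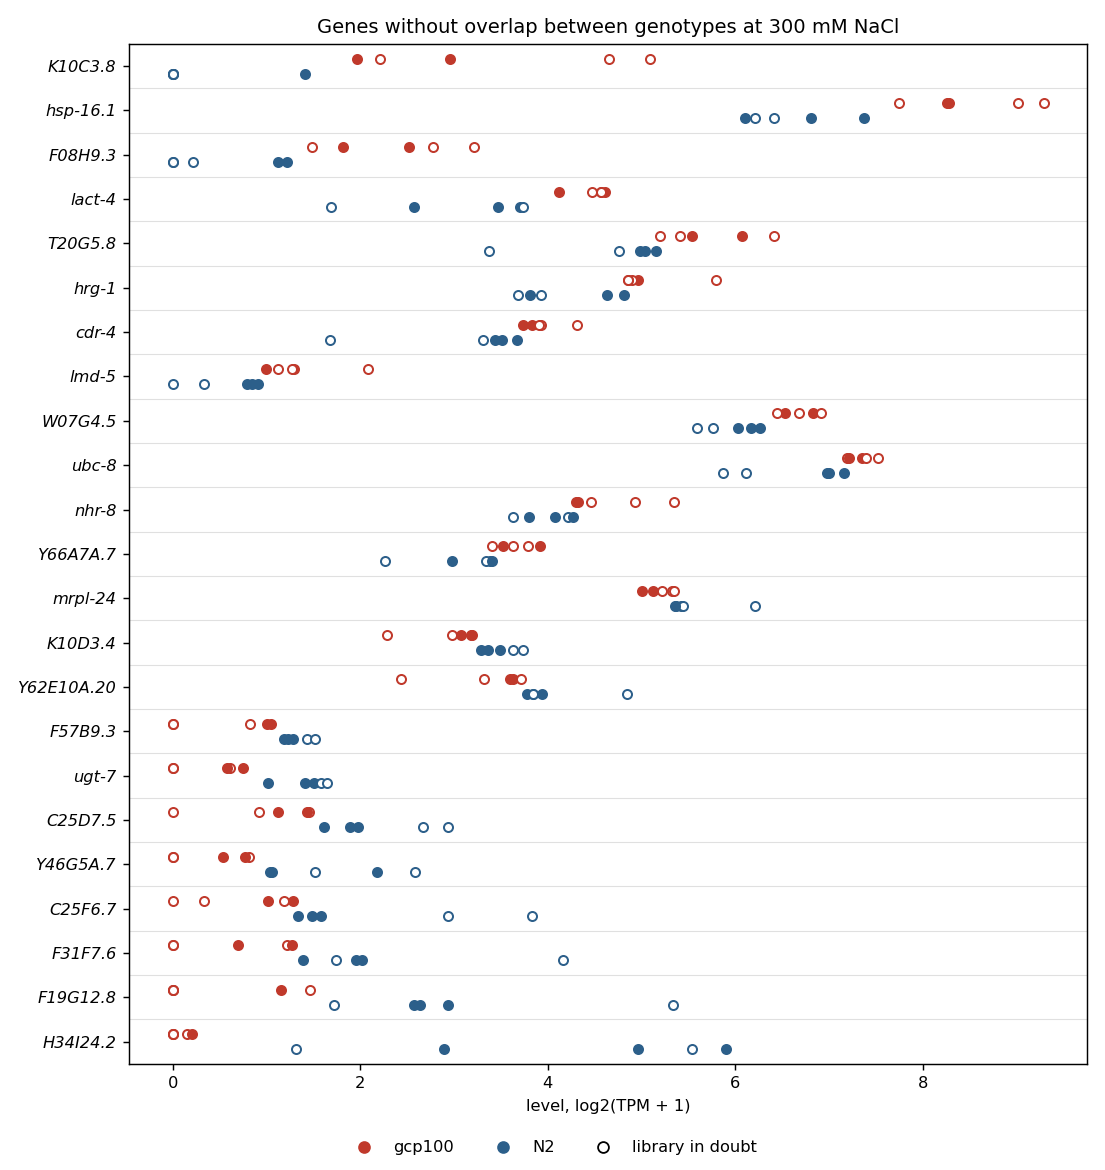
Level, as log2(TPM + 1), of the 23 genes whose gcp100 and N2 libraries do not overlap at 300 mM, 1 row per gene, gcp100 above N2 in each row, open circles for libraries in doubt. The 12 upper genes are higher in gcp100 and the 11 lower ones are lower; the widest separations are those of K10C3.8 and H34I24.2, and for 11 genes, hrg-1 among them, the nearest libraries of the 2 genotypes lie under 0.1 apart.

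The noncoding RNA gene K10C3.8 (WBGene00196100, chromosome I, 9852612 to 9852799, minus strand) had the smallest unadjusted p. It was at 3.61, 2.90, 24.1, 6.74 and 33 TPM in gcp100 replicates 1 to 5, and listed at 0 in all N2 libraries but replicate 4, which had 1.66 TPM. The log2 difference was 3.09 (SE 0.519, limma adjusted p = 0.115). The 2 highest gcp100 values came from replicates 3 and 5, both with most lines at 0. Leaving out the libraries in doubt gave 1.99 (limma adjusted p = 0.742). At 50 mM the means were 3.33 ± 1.76 TPM in gcp100 and 3.70 ± 0.886 TPM in N2 (SD, n = 5 each), with the groups overlapping. Values here cover 48 of the 68 samples, and the degron experiments are not analysed here. In the other 10 groups among these 48 samples the mean lay between 1.52 and 4.54 TPM. With all libraries, the means of both genotypes at 300 mM lie outside that range, on opposite sides. Without the libraries in doubt the gcp100 mean was 4.82 TPM, close to the top of that range, and the N2 mean 0.553 TPM.

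The gene H34I24.2 (WBGene00019261, chromosome III, 2842044 to 2845197) was at 0.11, 0, 0, 0.15 and 0 TPM in gcp100 replicates 1 to 5, and at 30.2, 58.7, 45.3, 6.44 and 1.48 TPM in N2. The log2 difference was -4.05 (SE 0.715, limma adjusted p = 0.115) at 300 mM and -4.08 at 50 mM. Its separation was thus as wide in larvae of mothers at low salt. Among the other groups with values here the group means of H34I24.2 were 0.0975 and 0.133 TPM in mir-85(gcp109) larvae and 0.50 and 0.55 TPM in a wild type of another experiment that is labelled as N2 too, neither labelled with a change in hrg-1, against 16.8 to 56.3 TPM in the remaining groups of these 48 samples.

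Among the other genes higher in every gcp100 library, hsp-16.1, a small heat shock protein gene, was at 516, 309.7, 625, 305 and 214 TPM in gcp100 replicates 1 to 5, and at 67.5, 110.5, 73.1, 165 and 83.8 TPM in N2 (log2 difference 1.94, SE 0.67). W07G4.5 averaged 102 ± 13.9 TPM in gcp100 and 62.3 ± 11.98 TPM in N2 (log2 difference 0.71, SE 0.165, n = 5 each). The lactamase domain gene lact-4 was at 16.3 to 23.5 TPM in gcp100 and 2.21 to 12.3 TPM in N2 (1.43, SE 0.431), ahead of its difference of 0.78 at 50 mM. These 3 genes show separations wider than that of hrg-1 between the nearest libraries.

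The remaining genes of this kind separated by smaller steps or were low. The ubiquitin-conjugating enzyme gene ubc-8 averaged 160.5 ± 15.6 TPM in gcp100 and 103.9 ± 38.2 TPM in N2 (log2 difference 0.71, n = 5 each), where N2 replicates 3 and 5, both in doubt, were the 2 lowest, and leaving out those in doubt gave 0.23. T20G5.8 averaged 54.7 ± 20.2 TPM in gcp100 and 26.4 ± 10.03 TPM in N2 (1.07). The nuclear receptor gene nhr-8 averaged 25.5 ± 8.995 TPM in gcp100 and 15.2 ± 2.95 TPM in N2 (0.68). The cadmium-responsive gene cdr-4 was at 14.5 ± 2.53 TPM in gcp100 and 8.61 ± 3.72 TPM in N2 (0.82), and Y66A7A.7 at 11.7 ± 1.82 TPM in gcp100 and 7.77 ± 2.48 TPM in N2 (0.58). F08H9.3 (1.85) and lmd-5 (0.78) stayed under a mean of 5 TPM in both genotypes. Leaving out the libraries in doubt gave 0.26 for nhr-8, 0.24 for cdr-4 and 0.29 for lmd-5. The smallest limma adjusted p among these genes, hsp-16.1, W07G4.5 and lact-4 was 0.776.

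Among the 11 genes lower in every gcp100 library, F19G12.8 was at 1.75, 0, 0, 1.22 and 0 TPM in gcp100 replicates 1 to 5, and at 6.64, 4.95, 2.3, 5.23 and 39.3 TPM in N2 (log2 difference -2.52, SE 0.522, limma adjusted p = 0.521); F19G12.4 overlaps it on the same strand. The noncoding gene F31F7.6 averaged 0.674 TPM in gcp100 and 5.37 TPM in N2 (-1.61), and C25F6.7 averaged 0.796 TPM in gcp100 and 5.03 TPM in N2 (-1.47), in both cases with 1 or 2 N2 libraries in doubt far above the rest. With those in doubt left out the differences were -0.80 for F31F7.6 and -0.32 for C25F6.7.

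Genes with higher levels differed less. Y62E10A.20 averaged 9.58 ± 3.12 TPM in gcp100 and 16.3 ± 6.42 TPM in N2 (log2 difference -0.71, n = 5 each). K10D3.4 averaged 6.89 ± 1.76 TPM in gcp100 and 10.4 ± 1.45 TPM in N2 (-0.56). Y62E10A.20 was at -0.24 and K10D3.4 at -0.25 without the libraries in doubt. The mitochondrial ribosomal protein gene mrpl-24 averaged 35.9 ± 3.53 TPM in gcp100 and 47.4 ± 14.2 TPM in N2 (-0.36), with N2 replicate 5 at 72.8 TPM and the other N2 libraries at 39.9 to 42.6 TPM. The glucuronosyltransferase gene ugt-7 (-1.04), C25D7.5 (-1.23), Y46G5A.7 (-1.25) and F57B9.3 (-0.75) stayed under 5 TPM on average in both genotypes. Of these, ugt-7 was at -0.65, C25D7.5 at -0.55 and F57B9.3 at -0.21 without the libraries in doubt, where Y46G5A.7 was not tested.

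Small heat shock genes of the hsp-16 family, which respond to heat and other stresses, had higher means in gcp100 at both exposures. At 300 mM hsp-16.2 averaged 88.4 ± 33.8 TPM in gcp100 and 27.9 ± 18.9 TPM in N2 (log2 difference 1.74), hsp-16.41 averaged 128 ± 71.6 TPM in gcp100 and 36.7 ± 29.7 TPM in N2 (1.90), and hsp-16.48 averaged 307 ± 202 TPM in gcp100 and 100.6 ± 78.7 TPM in N2 (1.64; n = 5 each). The 4 genes of this family on the list, hsp-16.1 included, were the 4 of 16 heat shock and chaperone genes with an unadjusted p under 0.05, where the share over all genes was 1.73%, and 0 passed the adjusted test. Without the libraries in doubt 1 of 16 had one (2.03% over all genes), hsp-12.6, and the 4 hsp-16 genes did not. At 50 mM these 4 were again the 4 of 16 that had one (0.118% over all genes), with differences of 1.44 for hsp-16.1, 1.56 for hsp-16.2, 1.35 for hsp-16.41 and 1.44 for hsp-16.48. For hsp-16.1 at 50 mM, N2 replicates 2 and 4 were low, at 65.7 and 130.7 TPM. The other N2 libraries, at 954 to 1666 TPM, lay within the gcp100 range of 520 to 1907 TPM. Over the 16 genes of the list the median difference was -0.0014 at 300 mM, against 0.16 at 50 mM. Near-identical copies exist for hsp-16.1 (hsp-16.11) and hsp-16.48 (hsp-16.49), so the split of reads among these is uncertain. Genes of this family can also rise and fall together by library, so the 4 are not independent. At 300 mM replicate 2 was the highest library of each genotype for hsp-16.2, hsp-16.41 and hsp-16.48, though not for hsp-16.1.

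Histone genes had lower means in gcp100 as a group. Of 76 tested, 65 differences were negative, 30 with an unadjusted p under 0.05, where the share over all genes was 4.03%; 0 passed the adjusted test, and the median was -1.05. At 50 mM the median was -0.09 and none had an unadjusted p under 0.05, in the same fit with its spread shared between the exposures. Without the libraries in doubt the median was -1.11, with 23 of 72 at an unadjusted p under 0.05 (1.88% over all genes). The N2 libraries kept include replicate 1, whose summed histone level was 25800 TPM, against 12880 and 8909 TPM in N2 replicates 2 and 4. That library also held the most msp transcripts of those kept, 234 TPM. Because copies of a histone gene are near-identical, these are not independent: 26 of the 76 shared all their values with another, which leaves 61 distinct sets of values, 50 of them negative.

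As an example, his-20, whose values his-22 and his-52 share, was at 143, 145.5, 87.6, 101 and 193 TPM in gcp100 replicates 1 to 5, and at 506, 249.7, 175, 169 and 638 TPM in N2 (log2 difference -1.21, SE 0.317, limma adjusted p = 0.777). Only gcp100 replicate 5 reached into the N2 range. Summed over all 80 histone genes, levels were 31300, 9571, 11670, 7271 and 9809 TPM in gcp100 replicates 1 to 5, and 25800, 12880, 50270, 8909 and 30580 TPM in N2. The sums of gcp100 replicates 2 to 5 were below those of N2 replicates 1, 2, 3 and 5, while N2 replicate 4 lay among the gcp100 values and gcp100 replicate 1 among the N2 values.

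Markers of oocytes and early embryos had differences of the same sign as the histones. All 17 tested members, such as the RNA-binding protein genes oma-2 and puf-11, had negative differences (median -1.15, and -0.96 without the libraries in doubt), and their summed level was 3549, 117, 98.0, 36.6 and 264 TPM in gcp100 replicates 1 to 5, and 385, 136, 5921, 49.1 and 938 TPM in N2. The libraries with the highest oocyte and embryo sums, gcp100 replicate 1 and N2 replicate 3, were also those with the highest histone sums. All 13 tested germ cell genes were negative too (median -0.78, and -0.63 without), with sums of 59.2 to 724 TPM in gcp100 and 65.8 to 1227 TPM in N2. With all libraries none of these genes passed the adjusted test or had an unadjusted p under 0.05. Without those in doubt 1 of 17 oocyte and embryo genes and 1 of 11 germ cell genes had one, both negative (1.88% over all genes), and 0 passed. No member was at 0 in all 10 libraries, and the part of these cells in the histone difference was not tested. In whole larvae, fewer cells of a type and less RNA per cell cannot be told apart, and the part of transcripts from other stages was not tested.

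Yolk protein genes, which adult intestine expresses, were high in single libraries of both genotypes. The 6 vitellogenin genes summed to 10000, 3.47, 4.84, 2.08 and 3773 TPM in gcp100 replicates 1 to 5, and to 174, 11.2, 7563, 5.89 and 182 TPM in N2. Each of the 6 had a negative difference at 300 mM, yet gcp100 replicate 1 exceeded every N2 library and gcp100 replicate 5 all but N2 replicate 3. Of the 23 msp genes tested 21 were negative, with sums of 5.03 to 1502 TPM in gcp100 and 25.9 to 4740 TPM in N2, and msp-58 was listed at 0 throughout. Other sperm genes summed to 36.8 to 371 TPM in gcp100 and 39.6 to 1171 TPM in N2. Genes of later larvae and adults, a list that shares vit-2 and vit-5 with the yolk genes, were high in single libraries too. They summed to 6310 TPM in gcp100 replicate 1, 2180 TPM in gcp100 replicate 5 and 5874 TPM in N2 replicate 3. The other libraries held 1.18 to 109.6 TPM of them. The part of transcripts of yolk, sperm and later stages in the differences above was not tested.

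**Figure D3:**
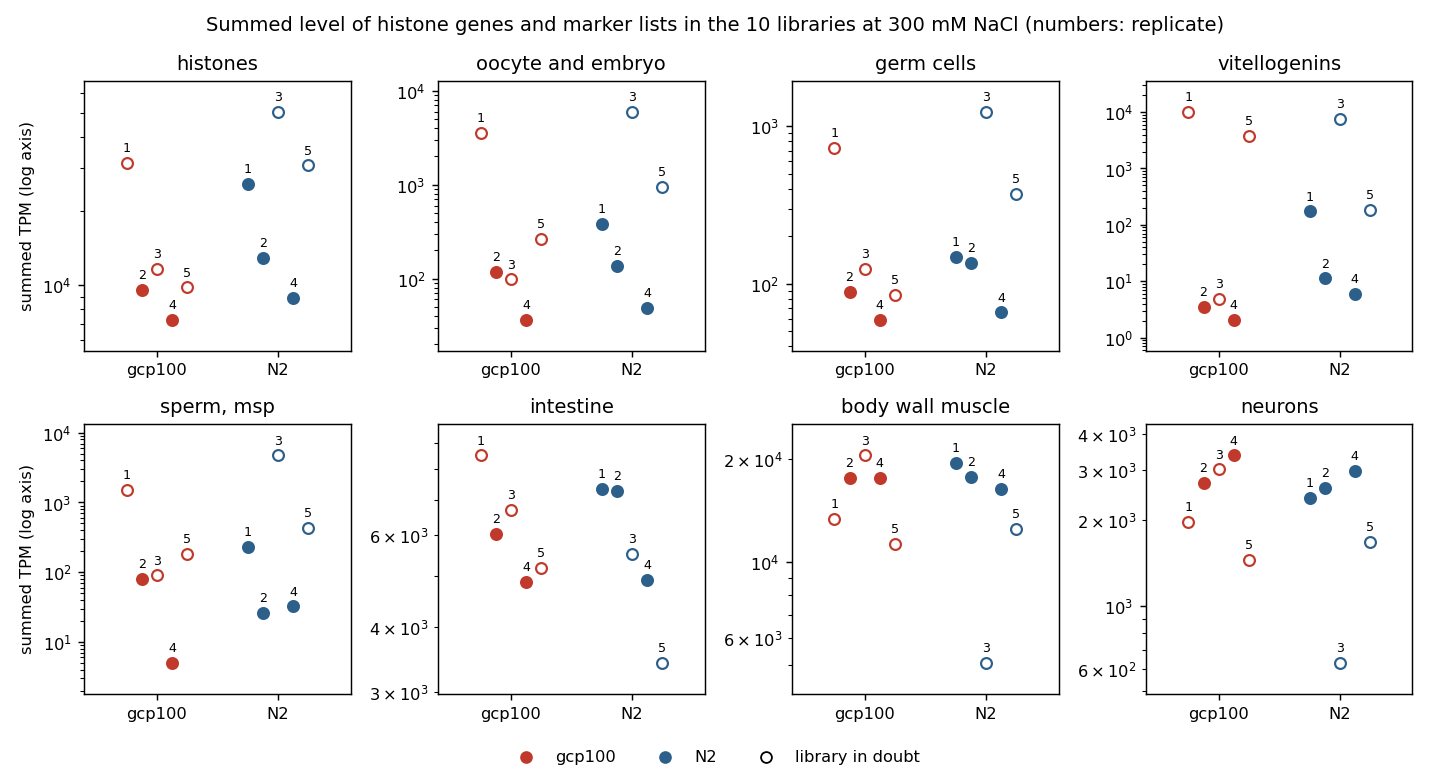
Summed TPM (vertical axes, log scale) of histone genes and of 7 marker lists in the 10 libraries at 300 mM, with the replicate number at each point and open circles for libraries in doubt. N2 replicate 3 is highest for histones (50270 TPM), oocyte and embryo genes (5921 TPM) and msp genes (4740 TPM) and lowest for body wall muscle (5065 TPM) and neurons (629 TPM).

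Markers of neurons, muscle and intestine had differences of the other sign with all libraries. All 12 neuron, all 11 body wall muscle and all 12 intestine markers had positive differences, with medians of 0.39, 0.33 and 0.20. None of them had an unadjusted p under 0.05. Over all genes 6591 of 15275 differences were positive and 8670 negative, and without the libraries in doubt 6959 of 14664 were positive. Genes of a list can rise and fall together by library, so their signs are not independent. For pharynx 6 of 8 were positive (median 0.54) and for hypodermis 4 of 7 (0.05). Sums of neuron markers ranged from 1444 to 3372 TPM in gcp100 and from 629 to 2965 TPM in N2, those of body wall muscle from 11300 to 20520 TPM in gcp100 and from 5065 to 19460 TPM in N2, and those of the intestine from 4875 to 8510 TPM in gcp100 and from 3411 to 7345 TPM in N2. Without the libraries in doubt all 12 neuron markers remained positive (median 0.16), as were all 7 pharynx markers still tested (0.33), but 5 of 11 muscle (-0.02), 4 of 12 intestine (-0.08) and 0 of 6 hypodermis markers (-0.20) were. No marker of intestine, muscle, neurons, pharynx or hypodermis was at 0 in all 10 libraries, so each of these tissues of the labelled whole larvae was represented.

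**Figure D4:**
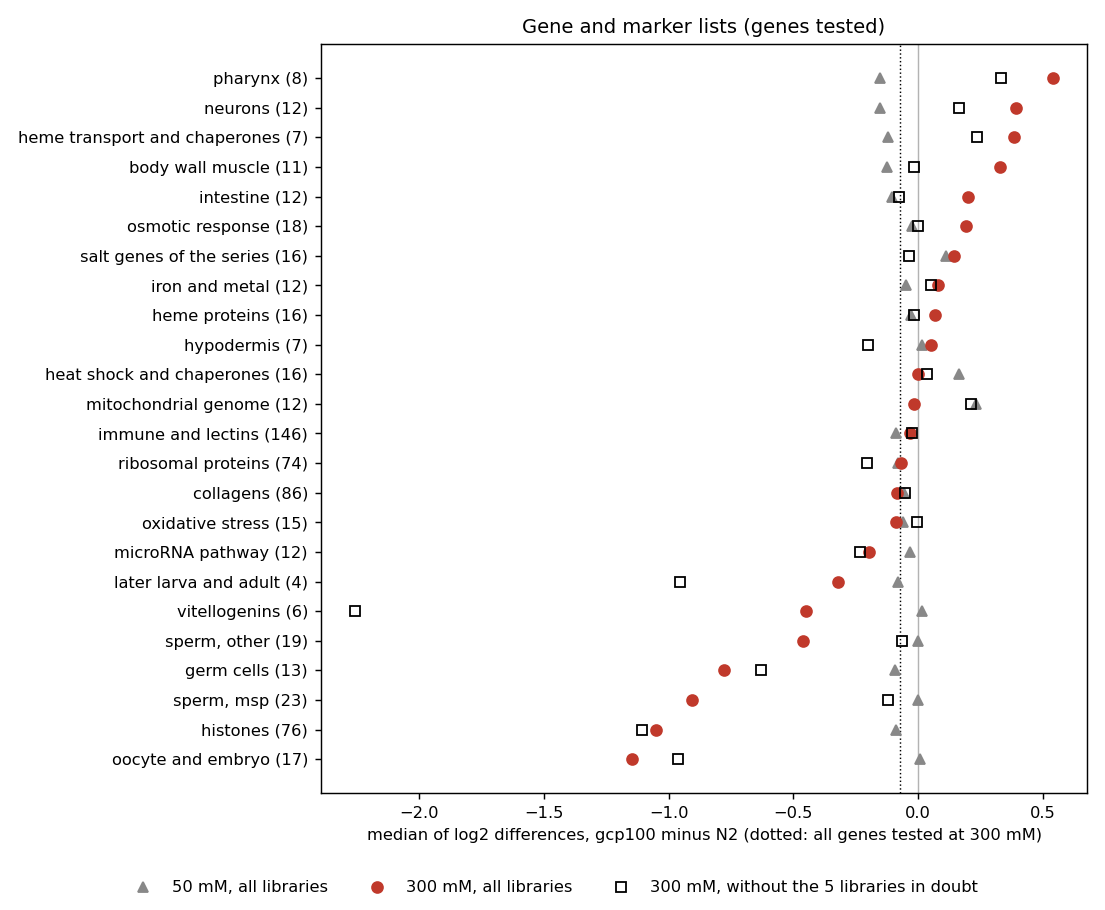
Median log2 difference between gcp100 and N2 (horizontal axis) of 24 gene and marker lists, with the number of genes tested in brackets. Triangles stand for 50 mM, filled circles for 300 mM and open squares for 300 mM without the 5 libraries in doubt. Fewer genes were tested for some open squares, with 2 for vitellogenins, 2 for later larva and adult genes and 3 for msp genes. Histones lie at -1.05 with all libraries and -1.11 without those in doubt, against -0.09 at 50 mM. N2 replicate 1, with a histone sum of 25800 TPM, is among the libraries kept. Muscle and intestine markers lie above 0 with all libraries and just below it without those in doubt.

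Genes of the osmotic response had small differences. Of 18 tested, 13 were positive (median 0.19, and -0.0018 without the libraries in doubt) and 0 passed. The trehalose synthase gene tps-2 had the smallest p of them, at 161, 175, 138, 134 and 133 TPM in gcp100 replicates 1 to 5, and at 140, 149, 62.5, 114 and 102 TPM in N2 (log2 difference 0.44, SE 0.188, limma adjusted p = 0.777; 0.20 without the libraries in doubt). Here the groups overlapped, and N2 replicate 3 was the lowest library. Of 16 genes that earlier results of these data gave as moved by maternal salt, 9 were positive (median 0.15, and -0.04 without the libraries in doubt) and 0 passed.

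The superoxide dismutase gene sod-5 was at 3.74, 13.7, 43.95, 4.85 and 6.44 TPM in gcp100 replicates 1 to 5, and at 5.63, 4.78, 0.13, 2.12 and 0 TPM in N2. The groups overlapped, and the highest gcp100 and the 2 lowest N2 values came from libraries in doubt (log2 difference 2.00, SE 0.581, limma adjusted p = 0.777). Without those libraries it was 0.91. Over the 15 oxidative stress genes 7 were positive, the median was -0.09 and 0 passed.

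The lectin and collagen families held genes with large single values and no common direction. Of 146 lectin, lysozyme and infection response genes 67 were positive (median -0.03), and 0 passed; clec-266 was at 3.73 to 33.3 TPM in gcp100 and 6.98 to 127 TPM in N2 (log2 difference -1.69, SE 0.624). Of 86 cuticle collagen genes 38 were positive (median -0.08), and 0 passed; col-93 averaged 169 ± 44.5 TPM in gcp100 and 352 ± 272 TPM in N2 (-0.85), with N2 replicate 3 at 835 TPM. Cytosolic ribosomal protein genes had 62 of 74 negative differences and a median of -0.07, and without the libraries in doubt 3 of 74 positive ones and a median of -0.21, against -0.02 over all genes. The 12 genes of the mitochondrial genome had a median of -0.02, and of 0.21 without the libraries in doubt, with 0.23 at 50 mM.

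Differences that stood at 300 mM and not at 50 mM were also looked for directly. By the smallest unadjusted p in the fit of that difference, of which none passed after adjustment, the genes with the stronger positive genotype difference at 300 mM were K10C3.8, described above, eak-4 and C44B7.10. C44B7.10 was at 768, 707, 724, 597 and 447 TPM in gcp100 replicates 1 to 5, and at 352, 491, 390 and 394 TPM in N2 replicates 1 to 4 and 349.6 TPM in replicate 5 (log2 difference 0.70, SE 0.158). Only gcp100 replicate 5 lay within the N2 range, and at 50 mM the genotypes had means of 896 ± 86.4 TPM in gcp100 and 897 ± 83.8 TPM in N2 (SD, n = 5 each). The gene eak-4 averaged 7.31 ± 2.90 TPM in gcp100 and 2.34 ± 1.82 TPM in N2 (1.46, and 0.66 without the libraries in doubt). In the other direction stood F35E12.5, with 0.724 TPM in gcp100 and 5.36 TPM in N2 (-1.78), Y53F4B.7, with 0.642 TPM in gcp100 and 5.49 TPM in N2 (-1.86), and ugt-7.

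Without the libraries in doubt, the genes with the smallest unadjusted p and no overlap between 2 gcp100 and 3 N2 libraries included nhr-57, a nuclear receptor gene known as a target of the hypoxia factor HIF-1, and F53C3.6 on the higher side. On the lower side stood pri-2, which encodes a primase subunit, and the replicative helicase genes mcm-4 and mcm-5. Over all libraries nhr-57 was at 30.4, 45.97, 68.7, 49.1 and 23.2 TPM in gcp100 replicates 1 to 5, and at 26.7, 31.7, 6.14, 26.8 and 26.5 TPM in N2 (log2 difference 0.93, and 0.73 without those in doubt). F53C3.6 averaged 16.23 ± 11.7 TPM in gcp100 and 6.72 ± 2.58 TPM in N2 (1.00, and 0.83 without).

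These genes were picked by their p in a comparison of 2 with 3 libraries. In gcp100 replicates 2 and 4 mcm-4 was at 11.4 and 13.7 TPM, against 27.6, 17.7 and 20.7 TPM in N2 replicates 1, 2 and 4 (log2 difference -0.75). With all libraries the difference was -0.51, since gcp100 replicate 1 held 62.1 TPM and N2 replicate 3 held 97.3 TPM. For mcm-5 the difference was -0.92 without the libraries in doubt and -0.57 with all, and for pri-2 it was -1.12 without and -1.14 with all. None of these genes passed after adjustment in either fit.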

How the data were processed

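The authors deposited 1 table of TPM with 30470 lines. Per the labels' protocols, ribosomal RNA was depleted and the libraries keep strand. The submitters' processing notes name WBcel235, ce11 and bedtools. The sources used here do not give the aligner or the counting program, and 0 columns matched no sample. For this experiment the columns had no entries for 3 reporter lines and held mars-1 and marb-1 at other places. Values therefore stood beside the wrong names (20693 of 30467 lines, not that of hrg-1). They were moved back, which took the correlation with the other libraries to r = 0.988, against r = 0.593 as deposited.

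A limma fit (version 3.58.1, R 4.3.3) of log2(TPM + 1) took genes that reached 1 TPM in 5 or more of the 20 libraries (variance trend, Benjamini-Hochberg over all genes tested, threshold 0.05, two-sided). The fit was checked on simulated data in which genes varied independently, each with 1 spread for all libraries. That check does not cover the larger spread at 300 mM, the libraries in doubt or genes that vary together. For hrg-1 an exact permutation test was added. Depth is unknown, so precision was read from the spread of libraries. Members, gene lists and the naming rule were chosen with earlier results of these data known. The rule took up to 12 genes each way without overlap and with a mean of at least 5 TPM, hrg-1 and genes within 10 kb, heme genes, up to 4 genes of each list and 3 each way for the difference between exposures. Genes under 5 TPM without overlap were named after their values were seen, and some genes that met the rule are left unnamed. The rule was repeated without the libraries in doubt as defined in the report, because the limit first planned leaves 1 library of gcp100. Alternatives were another pseudocount, no filter, rescaling, 300 mM libraries alone, library weights, a replicate block, values as deposited, and libraries left out.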

Additional observations from a re-analysis of the deposited data

Results flagged for a closer look

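In 142 groups of 5 values (each gene or list sum, in each genotype at 300 mM), 16 had 1 library apart from the rest, by the gap to its nearest neighbour on log2(TPM + 1) as a share of the whole range; chance flags about 1 group in 20. For hrg-1 this was gcp100 replicate 1 at 54.3 TPM, with the other 4 gcp100 libraries between 27.8 and 30.1 TPM.

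In gcp100, replicate 3 stood apart for K10D3.4 (3.88 TPM) and lmd-5 (3.24 TPM), replicate 4 for lact-4 (16.3 TPM), and replicate 5 for the summed osmotic response genes (1729 TPM) and pharynx markers (191.9 TPM).

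In N2, replicate 3 stood apart for T20G5.8 (9.35 TPM), nhr-57 (6.14 TPM), col-93 (835 TPM), the sum of sperm genes other than msp (1171 TPM) and the sum of hypodermis markers (787 TPM). N2 replicate 4 was the 1 library of its group in which K10C3.8 was not at 0 (1.66 TPM). N2 replicate 5 stood apart for F31F7.6 (16.95 TPM), Y62E10A.20 (27.7 TPM), mrpl-24 (72.8 TPM) and cdr-4 (2.2 TPM). Of the 16, 14 came from libraries in doubt.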

How the results depend on the processing

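At 300 mM 0 genes passed in the limma fit, and the same held under every alternative run except 3. A pseudocount of 0.1 gave 2 calls, K10C3.8 higher (log2 5.67, adjusted p = 0.00779) and H34I24.2 lower (-6.78, adjusted p = 0.00626). Leaving out 1 library at a time gave 0 to 1 calls: H34I24.2 without N2 replicate 5 (-4.75) and K10C3.8 without gcp100 replicate 2 (3.44). Genes at an unadjusted p under 0.05 numbered 173 with the 300 mM libraries alone and 2297 without gcp100 replicate 1, against 880. The difference between exposures gave 0 calls throughout.

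The exact permutation call of hrg-1 ended with library weights (difference 0.53, p = 0.0873), without the 5 libraries in doubt (0.49, p = 0.300, smallest possible 0.1) and with the replicate block (0.90, p = 0.0625), where 5 pairs allow nothing smaller. The first planned limit leaves 1 library of gcp100 against 2 of N2 (0.14), where no exact p under 0.333 is possible, so it tests nothing. Without 1 library at a time it was 0.72 to 1.06. At 300 mM same-numbered deviations of the genotypes correlated at -0.25 to 0.63, and 3 of 5 libraries correlated best with their own number. Since not every pair passed a limit of 0.1, the libraries were taken as unpaired there, but a pairing is not excluded. For replicates 2 and 4, the numbers with no library in doubt, r was 0.47 and 0.63. At 50 mM same-numbered deviations correlated at 0.26 to 0.56, with 4 of 5 best with their own. By the same limit the numbers pair the genotypes at 50 mM. A block for them, added after seeing the data, left 0 calls at 50 mM, with 947 genes at an unadjusted p under 0.05 against 193 without it in the 50 mM libraries alone, and 75 against 51 in the fit of all 20.

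Of 881 alternative values of 47 named genes, 17 changed sign, in 11 genes, none past the test. As deposited these were mrp-5 (-0.30), mop-25.1 (-0.94), F19G12.8 (0.77), ubc-8 (-0.56), col-93 (0.37), tps-2 (-1.03), Y53F4B.7 (0.10) and nhr-57 (-0.10), whose values then belong to other genes. With library weights hrg-2 was at -0.34 and asp-10 at -0.077. With the first planned limit hrg-4 was at 0.28, mrp-5 at -0.22 and mop-25.1 at -0.0012, and without the 5 in doubt mrp-5 at -0.11. Without 1 library at a time mrp-5 ranged from -0.029 to 0.26 and hrg-2 from -0.0070 to 0.87. The causes were not tested.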
